A study of Mus musculus with 2 samples.

Results

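The mitochondrial DNA transcription and replication factors were described here as 10 nuclear genes of the mouse, chosen by name: Polrmt, Tfam, Tfb2m, Tefm, Tfb1m, Polg, Polg2, Ssbp1, Lonp1 and Lrpprc. All 10 were found in every table, among 55536 mouse genes. Total RNA had been sequenced from whole hearts, 1 each from 2 females of the F1 hybrid B6CASTF1/J (C57BL/6J crossed with CAST/EiJ) aged 36 days, with 300 ng of RNA and ERCC spike-in RNAs per library. The labels name animal 03 (replicate 1) and animal 04 (replicate 2), with separate biosamples but the same donor identifier, and give no treatment or genetic change. The hearts formed 1 group, so no condition could be compared. With 1 library per heart, a difference between the libraries may come from animal, preparation or sequencing, which cannot be told apart. Where the animals cannot be told from technical repeats, the spread printed here may be technical.

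Mitochondria keep a small circular genome of their own, which encodes subunits of the respiratory chain and the RNAs needed to translate them. It is copied and transcribed by proteins that are encoded in the nucleus and imported. Transcription is started by the mitochondrial RNA polymerase together with TFAM, which bends and packs the DNA, and TFB2M, which opens the promoter. Replication is carried out by the polymerase gamma complex with a helicase and a single-strand binding protein. Heart muscle is among the tissues richest in mitochondria.

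All 10 genes were detected, which means a TPM (a level scaled to transcript length and to the same total in each library) of at least 1 in each heart. Their mean levels ran from 1.59 TPM for Polg2 to 53.2 TPM for Lrpprc, a 33.5-fold range. The median of the 10 means was 16.9 TPM, against 8.71 TPM for the 11042 nuclear protein-coding genes that were detected, and 8 of the 10 lay above that value. Lrpprc and Lonp1 together held 47.6% of the summed level of the 10 genes. No gene of the set was called different between the hearts, where 1.53% of the 13745 genes tested were.

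**Figure D1:**
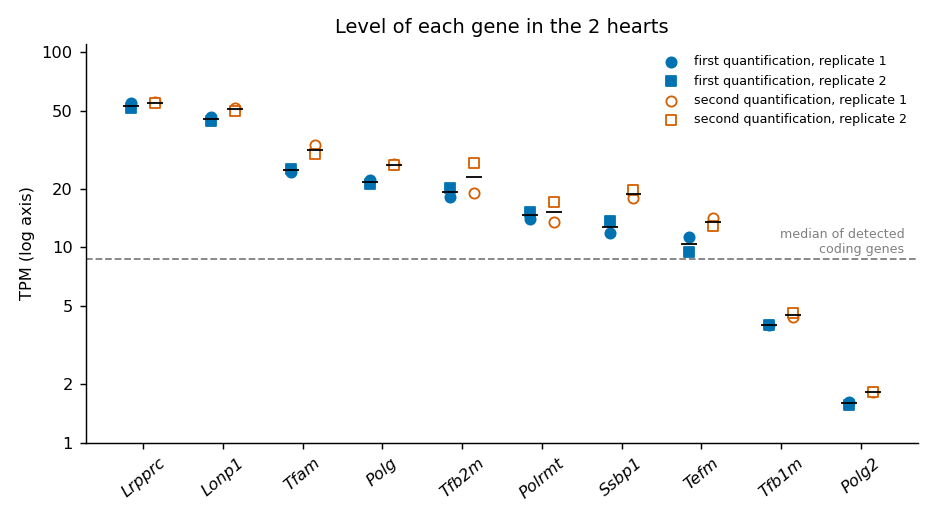
TPM of each gene (vertical log axis) in both hearts, for the 2 quantifications of the same libraries; points are single libraries, short lines their means and the dashed line the median of detected coding genes in the first quantification. Tfb1m and Polg2 sit below the dashed line, and the other 8 genes sit above it.

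Polrmt encodes the RNA polymerase that transcribes the mitochondrial genome and also makes primers for its replication. Its level was 13.9 TPM in replicate 1 and 15.2 TPM in replicate 2, from 990 and 928 expected counts (reads assigned to a gene, where a read that fits several genes is split among them). The mean was 14.6 ± 0.926 TPM (SD, n = 2), and 65.9% of the detected coding genes lay at or below it. Of its 13 annotated transcripts, Polrmt-201 led in both hearts and carries the longest coding sequence. That transcript held 45.6% and 36.3% of its TPM in the first quantification, and 64.4% and 46.5% in the second, which was made from the same reads against a transcript index. The short processed transcript Polrmt-205 held 29.9% ± 0.362 (SD, n = 2) in the first quantification and was listed at 0 in the second. There the retained-intron transcript Polrmt-204 held 12.97% and 30.6%, against 0.984% ± 1.39 in the first (SD, n = 2). Polrmt-209, a coding model of 1287 bases, held 11.0% ± 1.96 in the first and 4.42% ± 0.858 in the second (SD, n = 2). By counts, which are not divided by length, Polrmt-201 held 70.0% ± 5.17 and 91.3% ± 4.14 of the gene (SD, n = 2).

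Tfam encodes the abundant DNA-binding protein that packs mitochondrial DNA into nucleoids and serves as a transcription factor at its promoters. It stood at 24.3 TPM in replicate 1 and 25.3 TPM in replicate 2, from 1084 and 1009 expected counts. Its mean of 24.8 ± 0.714 TPM (SD, n = 2) was the third of the set. The levels in the hearts lay close together, and both were above those of every other member of the transcription machinery. In the second quantification the order of the hearts turned, with 33.4 TPM in replicate 1 and 30.0 TPM in replicate 2.

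The leading transcript of Tfam was not the same in the 2 quantifications. In the first, Tfam-202 led with 50.1% and 39.3% of the gene's TPM, while Tfam-203 held 2.69% ± 0.449 (SD, n = 2). In the second, Tfam-203 led with 50.1% and 59.4%, and Tfam-202 held 6.30% and 11.2%. Tfam-205, a partial coding model, held 14.9% and 29.3% in the first and was listed at 0 in the second, and the processed transcript Tfam-204 held 7.88% ± 0.743 and 17.05% ± 11.0 (SD, n = 2). By counts, the longer Tfam-201 led both, with 67.2% ± 0.332 and 65.3% ± 0.350 (SD, n = 2). Each of the 3 transcripts has 7 exons, and they differ in the first exon and in the length of the last one, which is 3236 bases in Tfam-201, 243 in Tfam-202 and 188 in Tfam-203. Their coding sequences, of 729, 645 and 597 bases, end in the same 597 bases and differ only ahead of them.

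The start of each Tfam coding sequence, 5′ to 3′ on the minus strand of chromosome 10 (GRCm38, the build mm10, GENCODE M21 transcripts), is shown because it is where the coding sequences of these models differ. Capitals mark the first 15 bases of the shared coding sequence, and lower case marks the 132, 48 or 0 coding bases ahead of it. The first of these starts carries the well-known amino-terminal part that directs TFAM into mitochondria.
Tfam-201: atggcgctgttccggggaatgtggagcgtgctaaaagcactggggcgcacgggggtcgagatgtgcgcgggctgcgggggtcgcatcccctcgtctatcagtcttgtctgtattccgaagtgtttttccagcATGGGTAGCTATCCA
Tfam-202: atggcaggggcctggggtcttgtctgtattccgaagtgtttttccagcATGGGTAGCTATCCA
Tfam-203: ATGGGTAGCTATCCA
The lower-case part was 84 bases longer in Tfam-201 than in Tfam-202, and Tfam-203 began at the shared ATG.

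Tfb2m encodes the transcription factor that opens the promoter for the polymerase. Its level was 18.1 TPM in replicate 1 and 20.2 TPM in replicate 2, from 1128 and 1104 expected counts, with a mean of 19.1 ± 1.55 TPM (SD, n = 2). The second quantification placed the hearts further apart in TPM, at 19.0 and 27.0. By its estimated counts, 1231 and 1169, the log2 ratio of replicate 2 over replicate 1 was only 0.01. The only protein-coding transcript, Tfb2m-201, held 80.4% and 69.6% of the TPM in the first quantification, and 93.0% and 61.7% in the second. Most of the rest in replicate 2 of the second quantification was the processed transcript Tfb2m-205, with 32.3% there and 0 in replicate 1. By counts, Tfb2m-201 held 96.1% ± 2.73 (SD, n = 2) of the gene in that quantification, since Tfb2m-205 is only 458 bases long.

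Tfb1m is the sequence relative of Tfb2m and encodes a methyltransferase of the small mitochondrial ribosomal RNA. It was at 4.01 TPM in replicate 1 and 4.03 TPM in replicate 2, from 161 and 160 expected counts. Tfb2m exceeded it by 4.76 ± 0.368 times (SD, n = 2), and by 5.09 ± 1.07 times in the second quantification. Only 25.7% of the detected coding genes had a level at or below that of Tfb1m. Its single protein-coding transcript, Tfb1m-201, held 97.6% ± 3.36 of the TPM (SD, n = 2).

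Tefm encodes the elongation factor that lets the mitochondrial polymerase run through long templates. Its level was 11.3 TPM in replicate 1 and 9.50 TPM in replicate 2, from 383 and 312 expected counts. The mean was 10.4 ± 1.26 TPM (SD, n = 2), and in the first quantification this gene had the widest spread of the set relative to its mean, 12.1%. In the second, where Tefm was at 13.5 ± 0.937 TPM, Tfb2m, at 23.0 ± 5.65 TPM, and Polrmt, at 15.2 ± 2.4997 TPM, spread more widely (SD, n = 2). By estimated counts there, the log2 ratios of replicate 2 over replicate 1 were 0.01 for Tfb2m and -0.00039 for Polrmt, against -0.19 for Tefm. All 3 annotated transcripts of Tefm are protein-coding. Tefm-201 led with 70.9% ± 0.801 in the first quantification and 52.4% ± 7.70 in the second (SD, n = 2), and Tefm-202 followed with 17.3% ± 3.52 and 36.8% ± 3.29 (SD, n = 2). Tefm-203 held 11.8% ± 2.72 and 10.8% ± 4.40 (SD, n = 2).

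Polg encodes the catalytic subunit of DNA polymerase gamma, which copies mitochondrial DNA. It stood at 22.1 TPM in replicate 1 and 21.2 TPM in replicate 2, from 1891 and 1816 expected counts, with a mean of 21.7 ± 0.636 TPM (SD, n = 2). The level of the gene did not mainly come from transcripts annotated as protein-coding. These held 38.6% ± 4.12 of its TPM in the first quantification and 42.9% ± 1.39 in the second (SD, n = 2). Transcripts annotated for nonsense-mediated decay held 28.0% ± 1.72 and 22.3% ± 0.220, and those with a retained intron 30.4% ± 3.47 and 28.3% ± 0.684 (SD, n = 2). By counts, the protein-coding share was lower still, at 20.05% ± 0.925 and 20.9% ± 1.45 (SD, n = 2).

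Of the 18 annotated transcripts of Polg, only Polg-201 carries the longest coding sequence, of 3651 bases. Polg-201 held 5.56% and 5.51% of this level in the first quantification, and 5.70% and 4.88% in the second. The decay-annotated Polg-213 held 27.6% and 25.5% in the first, where it led in both hearts, and 19.8% and 20.4% in the second. The retained-intron Polg-203 held 16.8% and 20.9%, and in the second quantification 19.8% and 20.8%. In that quantification Polg-203 led by mean, close to Polg-213, and the 375-base Polg-206 led in replicate 1. Polg-206, annotated as protein-coding with 207 coding bases, held 10.6% and 15.6% in the first quantification and 20.7% and 10.3% in the second. The partial Polg-211 held 1.34% ± 1.90 in the first and 12.1% ± 1.28 in the second (SD, n = 2). Polg-201 is 7837 bases long, and 3807 of these lie in its last exon, against 475 of 4247 bases in Polg-213 and 656 of 4589 in Polg-203.

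**Figure D2:**
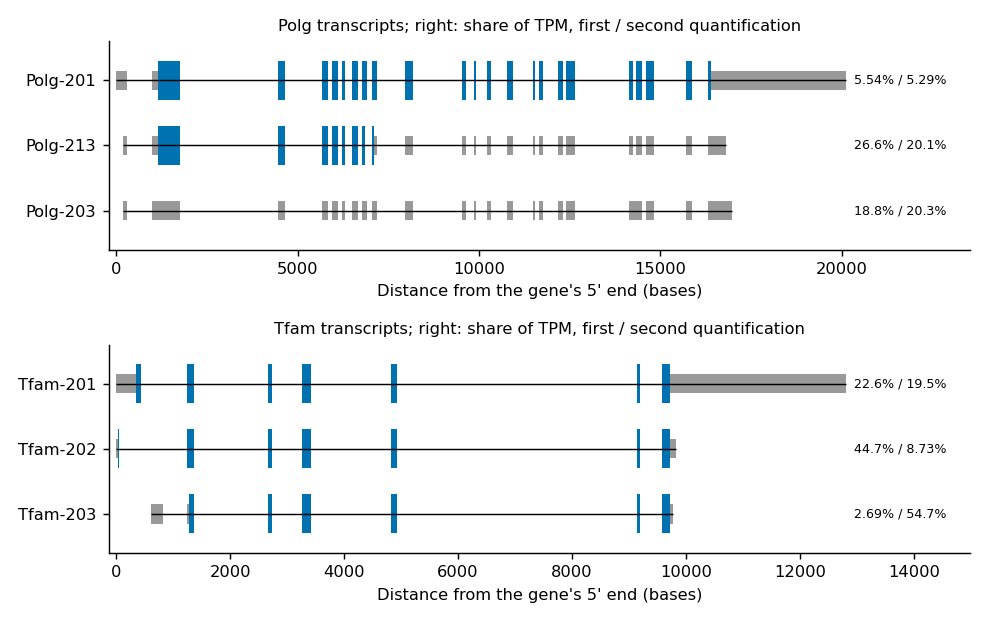
Exon models of 3 Polg and 3 Tfam transcripts along the distance from each gene's 5′ end in bases; wide blue boxes are annotated coding bases, narrow grey boxes other exon bases, and the numbers at the right are mean shares of a gene's level in either quantification, first then second. Polg-201, with coding boxes through to its last exon, holds 5.54% and 5.29%, less than the other 2 Polg models, and Tfam-202 and Tfam-203 trade places between the quantifications.

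Inside the coding part of Polg, Polg-213 and Polg-203 each differ from Polg-201 by a short stretch, and both stretches are shown because no other intron boundary of these models departs from Polg-201. Polg-213 ends exon 8 of the gene 76 bases early, a length that is not a multiple of 3. Polg-203 keeps intron 19 of Polg-201, which is 78 bases long. Both are read 5′ to 3′ on the minus strand of chromosome 7 (GRCm38), the first from chr7:79459437-79459524 and the second from chr7:79452017-79452118. Capitals mark the bases that Polg-213 lacks and those that Polg-203 keeps, and lower case marks 12 flanking exon bases.
Polg exon 8 end: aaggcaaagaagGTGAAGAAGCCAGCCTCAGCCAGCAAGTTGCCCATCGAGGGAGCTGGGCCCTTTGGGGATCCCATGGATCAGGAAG
Polg intron 19: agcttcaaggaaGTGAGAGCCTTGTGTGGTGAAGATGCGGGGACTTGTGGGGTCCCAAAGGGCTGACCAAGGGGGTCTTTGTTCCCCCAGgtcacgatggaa
The stretch that Polg-213 lacks begins with gt, as introns do. How reads were divided between these overlapping models was decided by the authors' programs, and the junctions themselves were not counted here.

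Polg2 encodes the accessory subunit that binds POLG and raises its processivity. It was the lowest of the set, at 1.61 TPM in replicate 1 and 1.57 TPM in replicate 2, from 77 and 70 expected counts. Polg exceeded Polg2 by 13.6 ± 0.158 times (SD, n = 2), and by 14.6 ± 0.0161 times in the second quantification. The 2 genes thus lay at 76.2% and 5.22% on the scale of detected coding genes at or below them. These are levels of whole genes, with all annotated transcripts summed. The transcript with the longest coding sequence averaged 1.2 TPM for Polg and 1.33 TPM for Polg2 in the first quantification. In the second quantification its mean was 1.40 TPM for Polg and 1.09 TPM for Polg2. The single protein-coding transcript of Polg2 held 75.0% and 93.6% of the TPM in the first quantification, and 60.6% and 59.0% in the second. The rest was annotated for nonsense-mediated decay, 40.2% ± 1.13 of the TPM in the second quantification (SD, n = 2), mostly a model of 1770 bases with 26.6% ± 3.59 and one of 2728 bases with 10.2% ± 6.52 (SD, n = 2). At fewer than 80 expected counts per library, these shares rest on few reads.

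Ssbp1 encodes the single-strand binding protein that covers the displaced strand during replication. Its level was 11.8 TPM in replicate 1 and 13.7 TPM in replicate 2, from 355 and 392 expected counts, with a mean of 12.8 ± 1.32 TPM (SD, n = 2). The second quantification gave 17.9 and 19.8 TPM, a mean 1.48 times that of the first and the widest such gap of the set. Every member was higher in the second quantification, and so were 87.4% of the detected coding genes, by a median of 1.16 times. A transcript of 933 bases, 444 of them coding, led, with 88.0% ± 3.53 of the TPM in the first quantification and 65.6% ± 9.75 in the second (SD, n = 2), where a shorter one, of 579 bases in all, held 18.2% and 32.4%.

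Lonp1 encodes the ATP-dependent matrix protease that degrades TFAM among other substrates and also binds DNA. It stood at 46.5 TPM in replicate 1 and 44.6 TPM in replicate 2, from 4179 and 3885 expected counts, and its mean was 45.5 ± 1.28 TPM (SD, n = 2). Lonp1 exceeded Lonp2, the related protease of peroxisomes, by 1.58 ± 0.0154 times, Lonp2 being at 28.8 ± 1.09 TPM (SD, n = 2). The single protein-coding transcript of Lonp1 held 99.4% ± 0.169 of the TPM in the first quantification and 99.4% ± 0.154 in the second quantification (SD, n = 2).

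Lrpprc encodes a pentatricopeptide protein that, with SLIRP, stabilises mitochondrial messenger RNAs. It was the highest of the set, at 54.9 TPM in replicate 1 and 51.5 TPM in replicate 2, from 6511 and 6181 expected counts, with a mean of 53.2 ± 2.43 TPM (SD, n = 2). Of the detected coding genes, 1004 were higher. Its partner Slirp was at 67.5 and 58.0 TPM, so that the ratio of Lrpprc to Slirp was 0.851 ± 0.0529 (SD, n = 2). In the second quantification the ratio was 0.636 ± 0.00849 (SD, n = 2). Lrpprc-201 held 86.4% ± 3.42 of the TPM, and the processed transcript Lrpprc-202 held 14.4% and 9.52% in the first quantification and was listed at 0 in the second.

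**Figure D3:**
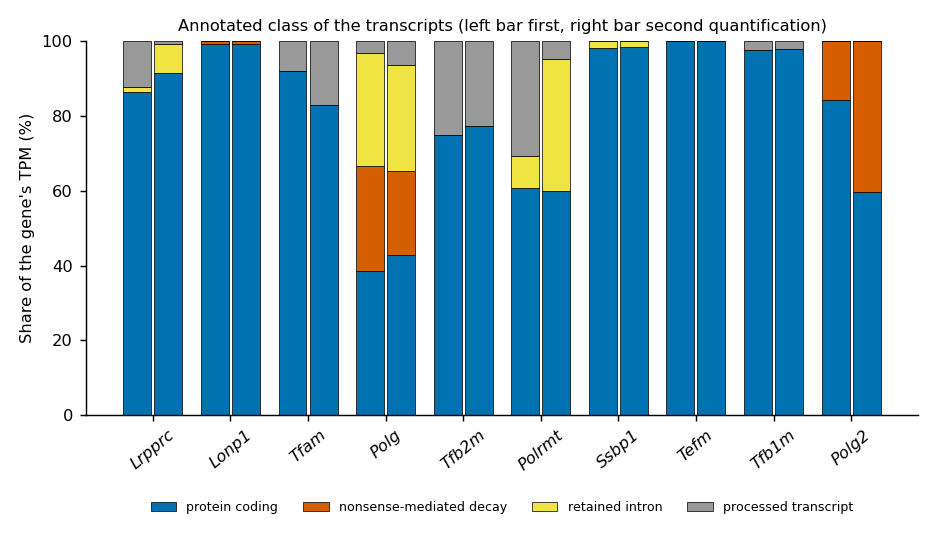
Share of each gene's TPM (vertical axis, percent, mean of 2 hearts) by the annotated class of its transcripts, with the first quantification at the left and the second at the right of each pair of bars. Polg is the only gene whose protein-coding share, 38.6% and 42.9%, is not the larger part in either quantification.

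Over the set, the leading transcript was annotated as protein-coding for 9 of 10 genes in each quantification, Polg being the exception. The 2 quantifications named the same leader for 8 of 10, the others being Tfam and Polg. For 7 genes the shared leader held more than 50% in both. The leader was the same in both hearts for all 10 genes in the first quantification and for 9 in the second, where Polg differed. The members have 69 annotated transcripts, of which 7 were listed at 0 TPM in every table.

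Ordered by mean level, the genes ran Lrpprc, Lonp1, Tfam, Polg, Tfb2m, Polrmt, Ssbp1, Tefm, Tfb1m and Polg2. The libraries' ranges did not overlap for any of the 9 neighbouring pairs, but with 2 libraries a range is narrow, and the smallest two-sided p that an exact permutation of 2 against 2 allows is 0.333. For 7 pairs the difference of means exceeded the sum of the SDs. Polrmt and Ssbp1 differed by 1.82 TPM against summed SDs of 2.24, and Ssbp1 and Tefm by 2.38 TPM against 2.57. Summed SDs take no account of the genes being measured in the same hearts. In each of these pairs the gene named first was the higher in both hearts. In the second quantification Ssbp1 stood above Polrmt in both hearts, and Polg above Tfb2m in 1 of 2. The other 8 genes kept their rank.

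The 2 hearts were then compared gene by gene on expected counts, which asks how far the members differ between single libraries of 2 animals of 1 kind. An exact binomial test set the counts against the library sizes of edgeR's TMM scaling, and a gene was called at a Benjamini-Hochberg adjusted p under 0.05 and at least a 2-fold difference. None of the 10 members was called, where 1.53% of the 13745 genes tested were. At any fold none passed the binomial test either, against 21.9% of all genes tested, and 1 had an unadjusted p under 0.05. By edgeR's exact test with a common dispersion none passed, against 1.13% of genes at any fold, and none had an unadjusted p under 0.05. That dispersion was estimated from the same 2 hearts taken as 1 group, so it already holds the differences under test. This test therefore cannot show that the members are alike in the hearts. These tests compare the reads of 2 libraries, not conditions.

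The largest difference was that of Ssbp1, with a log2 ratio of replicate 2 over replicate 1 of 0.25 (95% exact interval 0.03 to 0.46) and a binomial adjusted p of 0.0833. In the second quantification, from 384 and 366 estimated counts, its log2 ratio was 0.02. Of all genes tested, 24.7% had a ratio at least as large as the 0.25 of Ssbp1 in either direction. Tefm went the other way, with a log2 ratio of -0.19 (-0.41 to 0.03), adjusted p of 0.223, and it had -0.19 in the second quantification as well. Tfb1m had 0.09 (-0.23 to 0.42) and Tfb2m 0.07 (-0.05 to 0.19). The interval was widest for Polg2, at -0.03 (-0.52 to 0.45), and narrowest for Lrpprc, at 0.03 (-0.02 to 0.08). Tfam, at 0.00 (-0.13 to 0.12), Polrmt, Polg and Lonp1 had intervals that included 0.

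The median log2 ratio of the 10 genes was 0.02, beside 0.00 for all genes tested, with 6 members higher and 4 lower in replicate 2. These directions hung on the scale. With the spike-in RNAs as the scale the median of all genes moved to 0.24 and that of the members to 0.26, and all 10 members were then higher in replicate 2. That scale adds the same amount to the log2 ratio of every gene and leaves the members' place among the other genes as it was. On all 5 scales tried, 3 members kept their sign, namely Ssbp1, Tfb2m and Tfb1m, all higher in replicate 2. The scales of TMM, DESeq2 and the spike-ins differ only by an amount common to all genes. The smallest values were near 0, with 0.02 for Ssbp1 and 0.01 for Tfb2m in the second quantification. For Tfb1m it was 0.0072, as a ratio of TPM values.

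**Figure D4:**
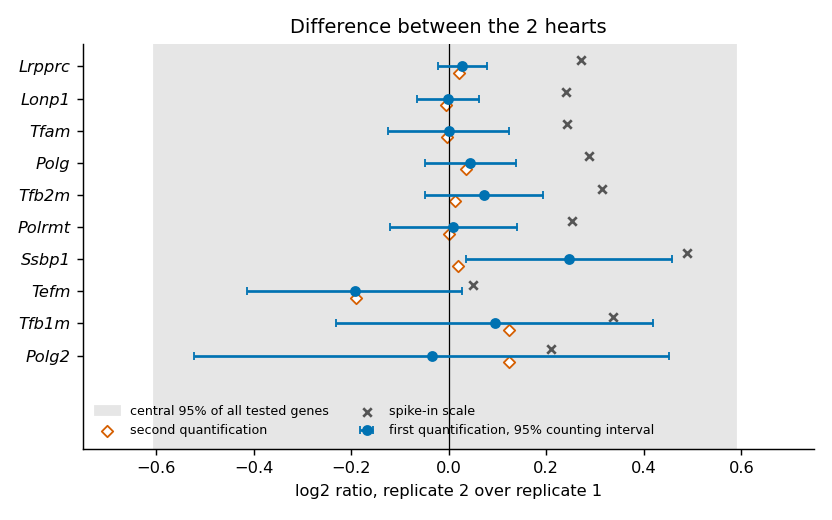
Log2 ratio of replicate 2 over replicate 1 (horizontal axis) for each gene, with 95% counting intervals for the first quantification, the value in the second and that on the spike-in scale; the grey band holds the central 95% of the genes tested. All 10 first-quantification values lie inside the band from -0.61 to 0.59, and only the interval of Ssbp1 leaves out 0.

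The libraries held 39053339 and 38332179 expected counts. Heart muscle markers summed to 30507 and 30310 TPM with 0 of 7 called. Of the endothelial, fibroblast and macrophage markers 0 of 3 each were called, and 0 of 3 skeletal muscle markers and 0 of 1 hepatocyte marker were detected. All 4 erythroid markers were called lower in replicate 2, from a summed 34690 to 11352 TPM, as were 2 of 3 brown adipocyte markers, and all 3 of the latter together summed to 105 and 33.5 TPM. In whole tissue, fewer cells of a type and less RNA per cell cannot be told apart. The part of these cells in the members' values was not tested.

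The RNAs that the set acts on, those of the mitochondrial genome, made up 29.2% of the mouse counts in replicate 1 and 31.7% in replicate 2. The larger part was mitochondrial ribosomal RNA, with 18.7% and 20.9% of the mouse counts. The 13 mitochondrial messenger RNAs summed to 137221 and 144913 TPM, against 208 and 207 TPM for the 10 factors together. None of the 13 was called at 2-fold. At any fold, 9 were higher and 4 lower in replicate 2 by the binomial test, at counts where small differences pass. The highest was mt-Co1, a catalytic subunit of cytochrome oxidase, at 34963 ± 576 TPM (SD, n = 2), with a log2 ratio of 0.09. In the first quantification the lowest was mt-Co2, at 470 ± 111 TPM, which stood at 2917 ± 38.5 TPM in the second (SD, n = 2). mt-Nd4l was at 9742 ± 1737 TPM in the first quantification and 215 ± 45.4 TPM in the second (SD, n = 2). mt-Atp8 was at 5057 ± 1267 TPM in the first (SD, n = 2) and listed at 0 in the second. Levels of single mitochondrial messenger RNAs thus differed between the quantifications, and the cause was not tested.

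Genes that work beside the set were taken from lists by role. The enzymes of mitochondrial DNA replication and repair had a median of 2.04 TPM over 11 genes, below the median of 16.9 TPM of the set. Of these, Endog, a mitochondrial nuclease, was highest at 35.0 ± 2.69 TPM, Top1mt, the mitochondrial topoisomerase, was in the middle at 2.04 ± 0.226 TPM, and Dna2, a nuclease and helicase, was lowest at 0.280 ± 0.113 TPM (SD, n = 2). Twnk, the replicative helicase that works with Polg and Ssbp1, stood at 10.8 ± 0.0990 TPM (SD, n = 2), a choice made after its value was seen. Of the 10 genes of this list that could be tested, 0 were called and 0 passed at any fold.

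The genes of mitochondrial nucleotide supply had a median of 9.11 TPM over 10 genes. They ran from Mpv17, an inner membrane protein, at 18.9 ± 0.940 TPM, through Samhd1, a dNTP hydrolase, at 8.03 ± 0.177 TPM, to Tymp, thymidine phosphorylase, at 0.190 ± 0.0566 TPM (SD, n = 2). None was called, and at any fold 2 were higher and 2 lower in replicate 2. The 6 further transcription partners had a median of 6.99 TPM. Mrpl12, a ribosomal protein that also binds POLRMT, was their highest at 85.9 ± 8.09 TPM, Mterf4, of the termination factor family, stood in the middle at 5.59 ± 0.509 TPM, and Mterf1b was lowest at 0.985 ± 0.332 TPM (SD, n = 2). Mterf1a and Mterf1b are near-identical copies, so the division of reads between them is uncertain. None of the 6 was called, and 1 passed at any fold, Mrpl12, lower in replicate 2.

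The genes of mitochondrial RNA processing and stability, where Lrpprc belongs by role, had a median of 10.7 TPM over 25 genes, all detected. Fastk was highest at 111 ± 9.90 TPM, Fastkd2 in the middle at 10.7 ± 2.04 TPM, both of the FASTK family of mitochondrial RNA-binding proteins, and Pde12, which trims poly(A) tails, lowest at 1.81 ± 0.276 TPM (SD, n = 2). Of these 25, 0 were called, and 4 passed at any fold, all lower in replicate 2. The proteases and chaperones around Lonp1 had a median of 38.3 TPM over 12 genes, from Hspa9, the matrix HSP70, at 229 ± 6.58 TPM, through Spg7, a subunit of an inner membrane protease, at 30.0 ± 1.84 TPM, to Oma1, a stress-activated inner membrane protease, at 12.4 ± 3.38 TPM (SD, n = 2). Lonp1 thus lay above the median of that list. The 6 other nucleoid-associated genes had a median of 66.4 TPM, from Phb, a prohibitin, at 141 ± 14.9 TPM, through the helicase Dhx30 at 22.4 ± 2.37 TPM, to Shmt2, an enzyme of folate metabolism, at 15.8 ± 0.240 TPM (SD, n = 2). In both lists 0 genes were called, while 4 of 12 and 2 of 6 passed at any fold.

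Among 11 nuclear regulators of mitochondrial biogenesis the median was 11.5 TPM. Esrra, an orphan nuclear receptor, was highest at 57.3 ± 6.55 TPM, Ppargc1b, a coactivator, in the middle at 11.5 ± 1.63 TPM, and Myc, a growth-related transcription factor, lowest at 1.22 ± 0.205 TPM (SD, n = 2). None was called at 2-fold, and at any fold 3 were higher and 2 lower in replicate 2. The coactivator gene Ppargc1a, named after its value was seen, was at 49.7 TPM in replicate 1 and 34.7 TPM in replicate 2, a log2 ratio of -0.49. Of the others that passed at any fold, Esrra was also lower, at -0.15. Ppargc1b, Pprc1 and Nrf1 were higher, at 0.24, 0.28 and 0.31. In the same comparison none of the 10 members passed at any fold, where 21.9% of all genes tested did. The 78 detected genes of mitochondrial ribosomal proteins had a median of 30.1 TPM, and 66 of them lay above the median of the set.

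**Figure D5:**
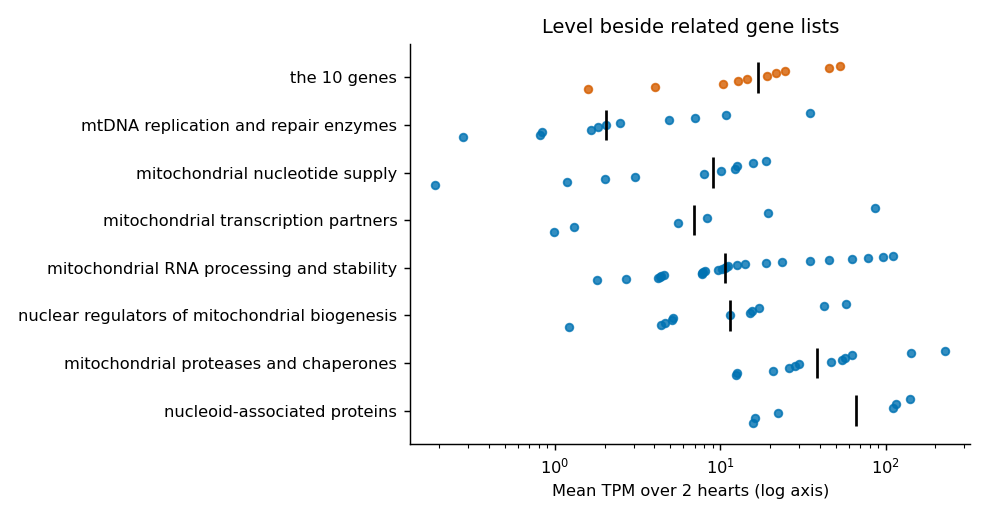
Mean TPM over 2 hearts (horizontal log axis) of the 10 genes and of 7 related gene lists; each point is a gene and each vertical line a list's median. The median of the 10 genes, 16.9 TPM, lies above those of the 5 lists drawn next to it and below those of the proteases and chaperones and of the nucleoid-associated proteins.

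The promoters of the members were searched on both strands for 8 motifs, in the 300 bases from 250 before to 50 after the RefSeq start (GRCm38.p6), and all 10 members were matched by symbol. The ETS motif CCGGAAG, the core bound by GABP (NRF-2), was present in 6 of 10: Tfam, Polrmt, Polg, Polg2, Ssbp1 and Tefm. Of all 32851 promoters in the table, 8.86% hold it, and of 11183 promoters of detected coding genes 17.6%. The NRF1 motif (a palindromic core with a free base) was present in 1 of 10, Polrmt, where 2 overlapping matches lay, beside 4.60% of all promoters and 10.1% of those of detected coding genes. The Sp1 motif GGGCGG was present in 7 of 10, beside 35.7% of all promoters and 63.6% of those of detected coding genes. The CCAAT motif was found in Polg only, beside 37.4% of either, and the E-box CACGTG in Lonp1 only, beside 7.15% and 10.006%. The counts for NRF1, Sp1 and the E-box thus lay near the shares among detected coding genes. No match was found for the ERR motif TCAAGGTCA, the YY1 motif AANATGGCG or the CRE motif TGACGTCA, beside 0.423%, 2.38% and 1.79% of all promoters and 0.259%, 5.17% and 2.99% of those of detected coding genes. A match is a run of letters and not a bound site.

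The 70 bases from 60 before to 10 after the RefSeq start are shown for the 6 promoters with an ETS motif. They are shown because in each the motif lay within 47 bases before that start. Each is written 5′ to 3′ on the strand of its gene, with capitals for ETS matches on either strand and, in Polrmt, also for the NRF1 matches.
Tfam: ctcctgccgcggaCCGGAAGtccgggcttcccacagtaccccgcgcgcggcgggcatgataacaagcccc
Polrmt: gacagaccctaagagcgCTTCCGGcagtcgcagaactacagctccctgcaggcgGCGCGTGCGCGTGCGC
Polg: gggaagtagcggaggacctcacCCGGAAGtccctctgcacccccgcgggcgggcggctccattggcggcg
Polg2: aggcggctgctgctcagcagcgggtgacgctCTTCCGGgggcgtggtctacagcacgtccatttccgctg
Ssbp1: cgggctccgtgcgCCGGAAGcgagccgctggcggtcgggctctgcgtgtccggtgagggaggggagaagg
Tefm: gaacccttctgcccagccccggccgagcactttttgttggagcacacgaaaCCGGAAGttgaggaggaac
The first base of the ETS match lay 47 bases before the RefSeq start in Tfam and Ssbp1, 43 in Polrmt, 38 in Polg, 29 in Polg2 and 9 in Tefm. It was read on the gene's own strand in Tfam, Polg, Ssbp1 and Tefm and on the other strand in Polrmt and Polg2. By GENCODE M21, Tfam, Polg, Ssbp1 and Tefm begin further upstream, at 71238280, 79466362, 40471352 and 80142175, so there the match lies inside the gene. Their RefSeq starts are 71238044, 79466273, 40471468 and 80142153. Polrmt and Polg2 begin at the same base in both annotations. The genes with the motif ran from the lowest of the set, Polg2 at 1.59 TPM, to Tfam at 24.8 TPM, and Lrpprc and Lonp1, the highest of the set, lacked it. The GC content of the 300-base windows had a median of 59.7% over the members, beside 52.7% over all promoters and 61.3% over those of detected coding genes.

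In the genome, 9 of the 10 genes lie on the minus strand, Ssbp1 being the exception, and 3 lie on chromosome 17. By GENCODE M21 on GRCm38, Tfam spans chr10:71225464-71238280, Polrmt chr10:79736123-79746581, Tfb2m chr1:179528055-179546267, Tfb1m chr17:3519256-3557781 and Tefm chr11:80136678-80142175. Polg spans chr7:79446231-79466362, Polg2 chr11:106768253-106779537, Ssbp1 chr6:40471352-40484700, Lonp1 chr17:56614297-56626887 and Lrpprc chr17:84705247-84790789. Another annotated gene overlaps 5 of the 10, each on the opposite strand, and the sources used here do not say whether strand was used in counting. The overlapping genes had low levels. Tiam2, which overlaps Tfb1m by 12089 bases, was highest at 0.670 ± 0.255 TPM (SD, n = 2), and Fanci, which overlaps the 3′ end of Polg by 4034 bases, was at 0.120 ± 0.0990 TPM (SD, n = 2). Cldn20 within Tfb1m, Milr1 at Polg2, Gm15480 within Tfb2m and AC165360.1 at Lrpprc had 0 to 13 expected counts per library. Cnst, a neighbour whose start lies 103 bases from that of Tfb2m on the other strand, was at 17.4 ± 1.61 TPM (SD, n = 2), close to the 19.1 TPM of Tfb2m. The other neighbours with such a start were far below their members. Means were 0.125 TPM for 1700102H20Rik (43 bases from Tfb1m), 0.025 TPM for Gm10616 (47 from Polg) and 0.045 TPM for Catsperd (1256 from Lonp1). These distances are by GENCODE M21. By RefSeq, Catsperd starts at 56626911, close to the Lonp1 start at 56626903 and inside the promoter window searched for Lonp1.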

How the data were processed

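Total RNA-seq libraries of 2 hearts were analysed. The authors deposited 2 quantifications against mm10 with annotation M21, per the deposited description files, and the programs were not given in the sources used. The first gives deposited expected counts and the authors' TPM per gene and transcript, with the columns of RSEM. The second gives deposited estimated counts and the authors' TPM per transcript, with the columns of kallisto, summed here per gene. Both used the C57BL/6J reference, and the effect of CAST/EiJ alleles was not measured. Members were found by symbol and joined on the gene identifier, and 26248 rows named by a number only were left out.

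Expected counts were rounded, and genes whose counts summed to 50 or more were tested by an exact two-sided binomial test against TMM library sizes (edgeR 4.0.16). For log2 ratios 0.5 was added to each count, and 95% intervals are exact (Clopper-Pearson). Intervals cover counting error only. The scripts were tested on simulated data. Alternatives were DESeq2 1.42.0 size factors, the spike-in scale, other filters and leaving out a library. Each list is described by its highest, middle and lowest gene and any called, and transcripts by leader and any of at least 10%. Members and lists were chosen with earlier results of these data known. DNA sequences are from GENCODE M21 and RefSeq, and no protein sequence was used here.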

Additional observations from a re-analysis of the deposited data

How the results depend on the processing

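The counts of members detected (10), with the same leading transcript (8) and with a coding leader (9) moved by at most 1.5 times under each alternative run for them. The count of members called stayed at 0 under each of its alternatives, where 1.53% of all genes tested were called in the main comparison. Leaving out either heart was among the alternatives for all but the members called and the log2 ratios, which need both. The median level was 20.9 TPM in the second quantification. The median log2 ratio was 0.26 on the spike-in scale. The sign of some ratios turned, all uncalled. The spike-in scale shifts all genes alike, with a median of 0.24, so its turns are not particular to the members. On it Tfam became 0.24, Polg2 0.21, Tefm 0.049998 and Lonp1 0.24. As a ratio of TPM values Tfam became 0.0588, Polg -0.0600 and Lrpprc -0.0930. In the second quantification Polg2 became 0.12 and Polrmt -0.00039. With DESeq2 size factors Polrmt became -0.0076. The cause was not tested. The mean TPM moved by more than 1 SD for 8 members in the second quantification and for 3 with the posterior mean. No paired analysis was possible because there is 1 group. Depth limits Polg2 and Tfb1m most, with 70 to 161 expected counts per library.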
